A study of Mus musculus with 4 samples.

Results

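Neutrophils and their granulocyte precursors made up 683 of the 29803 cells kept from 4 single-cell RNA libraries of mouse tibial fracture callus, or 2.29%. Cells were kept with 1000 to 50000 UMIs (unique molecular identifiers, each counting 1 captured RNA molecule), at least 500 genes and at most 15% of UMIs on mitochondrial genes. Members were chosen by measured UMIs: a cell had to hold at least 10 UMIs of S100a8, at least 10 of S100a9 and at least 3 in all of Csf3r, Ngp, Camp, Elane, Prtn3 and Retnlg. Members with 2 or more UMIs of Elane and Prtn3 together were called precursors (171 cells). Members with none of these and 2 or more of Retnlg and Cxcr2 were called late cells (377), and the other 135 lay between. All mice were wild-type C57BL/6J, 3 months old. The control libraries came from vehicle-injected mice and the RA libraries from mice injected with K/BxN serum, a serum-transfer model of inflammatory arthritis, each at 4 and 7 days post fracture (dpf). Callus tissue was scraped from the periosteal surface and digested with collagenase, calluses were pooled within a library (4 in the series record), and 10000 cells were loaded. The published methods give an n of 3 for each group, and whether this counts pooled calluses was not resolved. With 1 library per condition, no difference between conditions has a replicate check or a p-value, and library effects and condition effects cannot be told apart. Intervals are at 95% and cover counting error only. Because a fixed number of cells was loaded, shares are not numbers of cells per callus, and fewer neutrophils cannot be told apart from more of the other cells.

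Neutrophils are made in the bone marrow in a fixed order. Promyelocytes fill azurophil granules with elastase (Elane), proteinase (Prtn3) and myeloperoxidase (Mpo) while still dividing, myelocytes and metamyelocytes make specific granule proteins such as lactoferrin (Ltf) and cathelicidin (Camp), and nearly mature cells make gelatinase granules and the receptors that let them leave the marrow. After entering tissue they can transcribe cytokines and chemokines. The autoantibodies in K/BxN serum cause joint swelling through neutrophils, Fc receptors, complement C5a and leukotriene B.

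The label was checked against lineage genes. S100a8 and S100a9, the subunits of calprotectin, together made up 12.2% of late-cell UMIs in control and 20.6% in RA at 4 dpf, and 19.6% and 13.9% at 7 dpf. In the other kept cells they made up at most 0.0159%, a contrast that the rule itself sets. Ly6g, the surface antigen by which mouse neutrophils are sorted and not part of the rule, had a UMI in 22.0% of members in control and 46.5% in RA at 4 dpf, and in 53.0% and 40.9% at 7 dpf. It had a UMI in at most 0.150% of other cells. Free RNA was visible and unequal: 54.0% of the other cells of the RA library at 4 dpf held an S100a8 UMI, against 12.3%, 15.2% and 7.62% in control at 4 dpf, control at 7 dpf and RA at 7 dpf. Members at the edge of the rule were few. The lower of S100a8 and S100a9 stood at 10 to 14 UMIs in 23 members, and 19 otherwise qualifying cells lay just outside at 5 to 9; 31 members held exactly 3 granulocyte UMIs and 24 cells just outside held 2. No member's barcode was shared by a member of another library. A doublet caller marked 17 members. UMIs of macrophage, mesenchymal and endothelial genes reached 50 per 10000 in 62 members, 6 and 21 in control and RA at 4 dpf and 23 and 12 at 7 dpf.

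The neutrophil share was much higher in RA at 4 dpf and lower in RA at 7 dpf. At 4 dpf it was 1.84% (1.53 to 2.20) of 6400 kept cells in control and 6.61% (5.94 to 7.34) of 5004 in RA, so that the RA share was 3.59 (2.90 to 4.47) times the control share, or 6.62 (4.77 to 9.38) times with the study's stricter cell filter. At 7 dpf it was 1.86% (1.59 to 2.16) of 9039 cells in control and 0.705% (0.546 to 0.896) of 9360 in RA, 0.379 (0.281 to 0.507) times the control share. The control share of kept cells was alike at the 2 times (ratio 1.01, 0.792 to 1.29), whereas the RA share at 7 dpf was 0.107 (0.0806 to 0.139) of that at 4 dpf. Against cells with a Ptprc UMI, the leukocyte marker CD45, the ratio of RA to control was 3.58 at 4 dpf and 0.563 (0.415 to 0.757) at 7 dpf. On this basis the control share was not alike at the 2 times. The share at 7 dpf was 1.55 (1.21 to 1.99) times that at 4 dpf in control and 0.244 (0.183 to 0.320) times in RA. Basophil and mast cells also stood high in the RA library at 4 dpf, with 65 cells or 1.30% of kept cells against 0.156% in control, while B-cell precursors stood at 0.320% and 0.297% and eosinophils at 0.200% and 0.141%. UMIs of erythroid genes ran the other way, at 6.87 per 10000 in the other kept cells of control and 0.496 in RA at 4 dpf. Whether marrow entered the libraries unequally was not tested.

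**Figure D1:**
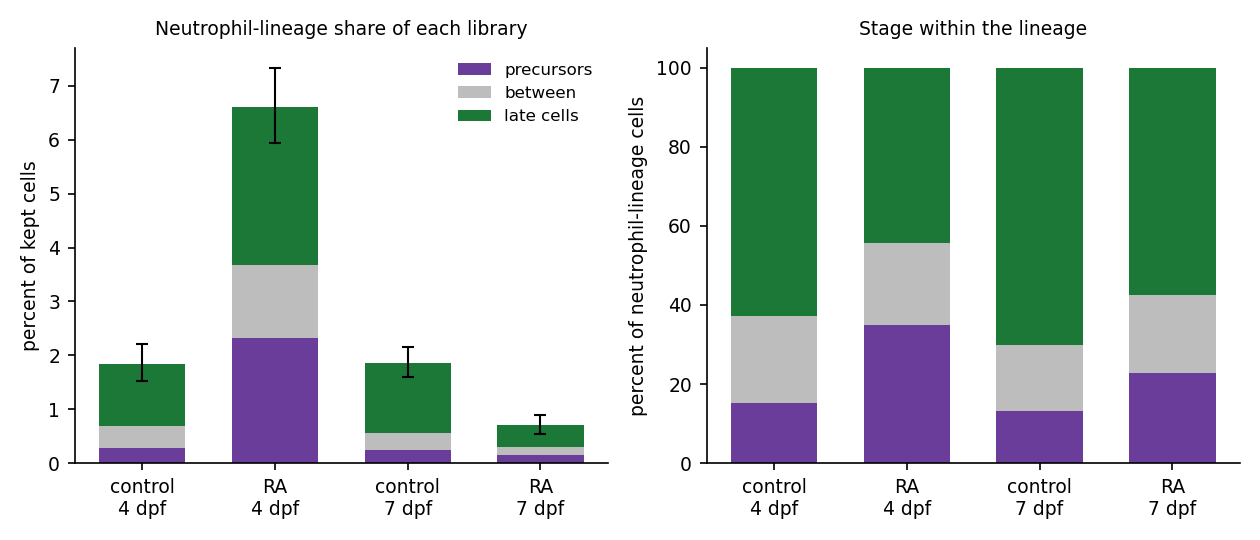
Left, neutrophil-lineage cells as percent of kept cells (vertical axis) in the 4 libraries, stacked by stage, with the 95% exact binomial interval of the total; right, the same cells as percent of the lineage. The RA library at 4 dpf reaches 6.61% and holds the largest precursor share, and the RA library at 7 dpf reaches 0.705%.

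Both precursors and late cells took larger shares of kept cells in RA at 4 dpf, but late cells as counted took a smaller share of members. Precursors numbered 18 of 118 members in control (15.3%) and 116 of 331 in RA (35.0%) at 4 dpf. At 7 dpf precursors numbered 22 of 168 (13.1%) and 15 of 66 (22.7%). Late cells were 62.7% of members in control and 44.4% in RA at 4 dpf, and 70.2% and 57.6% at 7 dpf. With members thinned to 1000 UMIs the late shares at 4 dpf ran the other way, at 24.6% in control and 36.3% in RA. They also ran the other way with late cells called at 5 UMIs. At 4 dpf 18 of the 74 control late cells and 6 of the 147 RA late cells held exactly 2 UMIs of Retnlg and Cxcr2. As a share of kept cells, precursors stood at 0.281% in control and 2.32% in RA at 4 dpf, a ratio of 8.24 (4.99 to 14.4), and late cells at 1.16% and 2.94%, or 2.54 (1.91 to 3.41) times as high. Under the study's cell filter these ratios were 8.61 (5.14 to 15.3) and 4.72 (2.84 to 8.19), and with stages called at 1000 UMIs 16.1 (6.55 to 51.3) and 5.29 (3.5 to 8.24). At 7 dpf RA precursors stood at 0.658 (0.318 to 1.33) times their control share and RA late cells at 0.311 (0.210 to 0.452), so the precursor difference at 7 dpf was within counting error and the late one was not. A precursor call rests on few molecules in part of the class: 100 of the 171 precursors held 10 or more UMIs of Elane and Prtn3, and 50 further members held exactly 1. Of the 171, 66 also held 2 or more UMIs of Retnlg and Cxcr2, 48 of them in RA at 4 dpf. Under the study's cell filter precursors were 38.6% of members in control and 50.2% in RA at 4 dpf. Outside the members, 600 kept cells held 2 or more, among them 193 in RA and 95 in control at 4 dpf. Depth also moves these shares, because precursors had medians of 25374 to 30321.5 UMIs per cell in the 4 libraries and late cells 3567.5 and 9269 in control and RA at 4 dpf and 5633 and 6057.5 at 7 dpf. With every member thinned to 1000 UMIs, precursors were 4.24% in control and 19.0% in RA at 4 dpf, and 4.76% and 7.58% at 7 dpf.

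**Figure D2:**
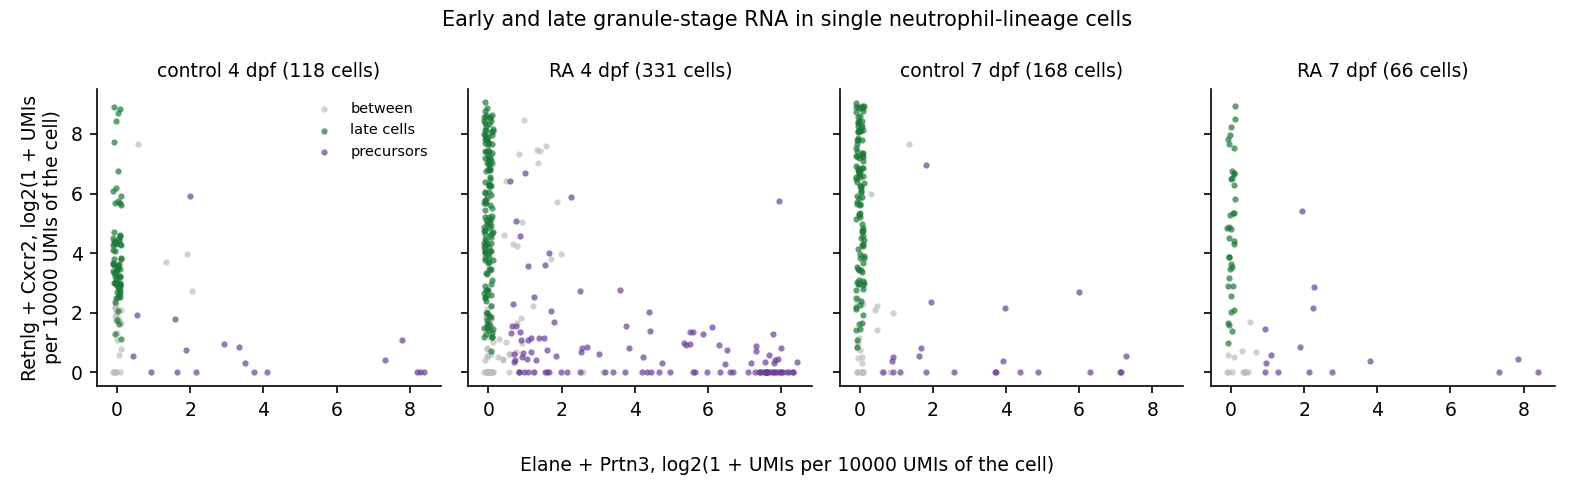
Each point is 1 member, placed by its Elane and Prtn3 UMIs (horizontal axis) and its Retnlg and Cxcr2 UMIs (vertical axis), both as log2(1 + UMIs per 10000 UMIs of that cell), with a small random horizontal shift and coloured by stage. Precursors of the RA library at 4 dpf spread along the horizontal axis, with a median of 20.9 UMIs per 10000 and quartiles of 1.86 and 183. They lie mostly low on the Retnlg and Cxcr2 axis, although 48 of the 116 hold 2 or more of these UMIs. Late cells line the left edge in all 4 libraries.

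The 2 genes that called precursors are neighbours. On GRCm38 Prtn3 lies at chr10:79874476-79883174 and Elane at chr10:79886247-79888215, both on the plus strand with 3072 bases between them, and the specific granule genes of the rule, Camp (chr9:109847379-109849617, minus strand) and Ngp (chr9:110419747-110423012, plus strand), share chromosome 9. For each, 80 bases upstream of the RefSeq start are shown because these pairs mark successive granule stages; each stretch ends where the next annotated exon begins, 53 to 161 bases before that start. The Prtn3 stretch lies inside the GENCODE gene span given above, which begins further upstream. Sequences are from RefSeq (GRCm38.p6), read along the gene. Capitals mark GAGGAA, the core bound by PU.1-type factors, or TTGCNNAA, of the C/EBP type, on either strand.
Prtn3: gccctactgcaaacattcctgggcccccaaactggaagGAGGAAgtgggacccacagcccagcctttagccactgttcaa
Elane: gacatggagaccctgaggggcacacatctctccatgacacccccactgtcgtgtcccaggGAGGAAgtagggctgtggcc
Camp: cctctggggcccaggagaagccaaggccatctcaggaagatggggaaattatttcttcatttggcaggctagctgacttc
Ngp: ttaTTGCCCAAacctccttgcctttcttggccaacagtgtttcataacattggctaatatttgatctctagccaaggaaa
These stretches lie at chr10:79879534-79879613, chr10:79886167-79886246, chr9:109849618-109849697 and chr9:110419667-110419746. Prtn3 and Elane each held 1 GAGGAA and no TTGCNNAA, Ngp held 1 TTGCNNAA and Camp neither. In the 250 bases before the RefSeq start, GAGGAA stood in 7 of 9 azurophil granule promoters and 6 of 12 specific granule promoters. TTGCNNAA stood in 0 of 9 and 4 of 12. Of 16 cytokine and chemokine promoters, 6 held GAGGAA and 2 held TTGCNNAA. Among all 27025 promoters the shares were 23.1% for GAGGAA and 9.55% for TTGCNNAA. A match of letters is not a measured binding site.

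Precursors and late cells differed along the known order of granule formation. Of 9855 genes compared, 456 (4.63%) differed at least 2-fold in the same direction in each of the 4 libraries, 250 (2.54%) higher in precursors and 206 (2.09%) higher in late cells. Levels are UMIs summed over cells and given as counts per 1e6 UMIs (CPM), and log2 ratios were taken after adding 10 CPM. Because the stages were called from Elane, Prtn3, Retnlg and Cxcr2 in the same cells, the differences below describe the classes and are no test of them. With the genes of the rule left out of the total the split was 231 to 266.

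Precursors held the azurophil granule genes. Mpo stood at 982 CPM in control and 1885 in RA at 4 dpf, and at 395 and 1014 at 7 dpf. In late cells Mpo had 2 UMIs in RA at 4 dpf and 0 in the other 3 libraries. Ctsg, the protease cathepsin G, stood at 1324, 1767, 186 and 914 CPM in the same order and had 6 UMIs in RA late cells at 4 dpf and none in the others. Among precursors, 62.1% of the cells in RA at 4 dpf and 26.7% to 40.9% in the other libraries held a Mpo UMI. Ms4a3, a marker of granulocyte and monocyte progenitors, was higher in precursors by 3.32 to 4.90 (log2) across libraries, and Fcnb, the granule lectin ficolin B, by 2.42 to 4.25. The other genes with the largest precursor excess were Nkg7, Prss57 (an azurophil serine protease), Gstm1, Dmkn, Hist1h1b (a linker histone of dividing cells) and Etfb. Of the 7 azurophil genes compared, 5 were past 2-fold in every library, with a median of 3.98 against -0.04 over all genes.

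Precursors also held more cell cycle RNA than late cells. Of 24 cell cycle genes compared, 11 were higher in precursors in every library and none in late cells, with a median log2 ratio of 1.84. Mki67, a marker of cycling cells, stood at 273 and 281 CPM in control and RA precursors at 4 dpf and at 278 and 197 at 7 dpf. In late cells the levels were 29.0 and 121 at 4 dpf and 26.1 and 75.8 at 7 dpf. The ratio was smallest in the RA library at 4 dpf, at 1.15 (log2), against 2.86 in control at that time. Among transcription factors of the lineage, Gfi1 and Myb were higher in precursors in every library, by 1.25 to 1.85 and 1.84 to 2.34, and Mxd1 and Klf2, which accompany cell cycle exit, were higher in late cells.

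Late cells held more gelatinase granule and cytokine RNA than precursors. Of 12 Fc receptor and signalling genes and 12 complement and leukotriene genes, none passed 2-fold in every library. Mmp9, gelatinase B, was lower in precursors by 3.55 to 3.94 (log2) in the 4 libraries, with 796 and 939 CPM in control and RA late cells at 4 dpf and 1157 and 615 at 7 dpf. Of 9 gelatinase and secretory granule genes, 6 were higher in late cells in every library (median -1.80), among them Mmp8, Adam8, Mmp25 and the formyl peptide receptors Fpr1 and Fpr2. Of 19 cytokine and chemokine genes 8 were higher in late cells, including Il1b, Cxcl2, Ccl3 and Ccl4, and of 17 innate sensing genes 6 were, including the decoy receptor Il1r2 and the lectin receptor Clec4d. Ly6g was also among the late genes, with log2 ratios of -1.87 to -2.79. The largest late excesses beyond these lists were in Hcar2, Il1f9, Acod1, Hdc (histidine decarboxylase, which makes histamine), Dhrs9 and Asprv1. Specific granule RNA was present in both stages: 1 of 12 genes passed, Fcnb, and the median was -0.07. Ltf, for example, was higher in late cells in each library, by 0.58 to 1.29 (log2), and reached 2-fold in the RA library at 4 dpf and the control library at 7 dpf.

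**Figure D3:**
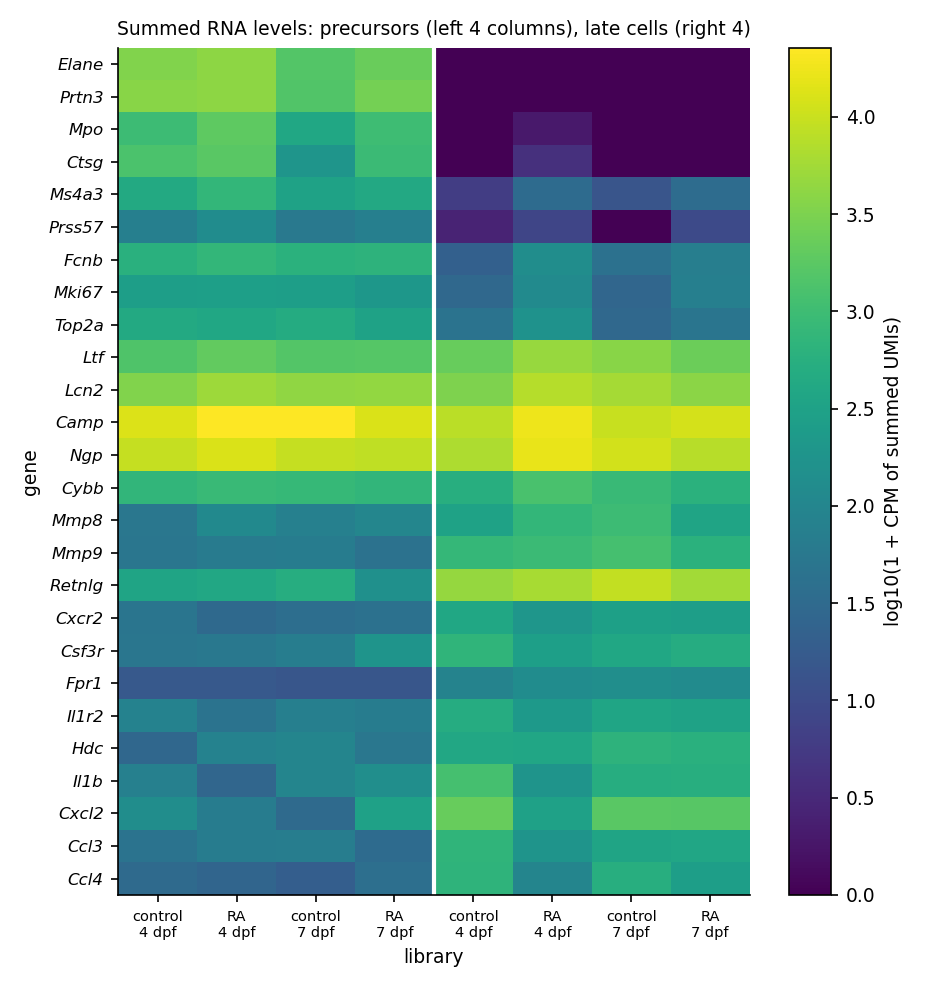
Colour gives log10(1 + CPM of summed UMIs) for named genes (rows) in precursors (left 4 columns) and late cells (right 4 columns) of each library. Elane to Top2a are bright on the left, Mmp8 to Ccl4 brighter on the right, and Ltf, Lcn2, Camp and Ngp bright in both; Il1b and Cxcl2 are dimmest among late cells in the RA library at 4 dpf.

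At 4 dpf, late cells of the RA library held more specific granule RNA and less cytokine RNA than those of control. Of 8432 genes compared, 637 (7.55%) were past 2-fold, 217 higher in RA (2.57%) and 420 lower (4.98%). The median over all genes was -0.13, and other scalings shifted the split of higher to lower genes: it was 367 to 273 after TMM scaling, and 358 to 335 with the genes of the rule left out of the total. TMM scaling also moved the median to 0.09, and the medians of the specific granule, cytokine, interferon and cell cycle lists kept their signs under both scalings. In the specific granule list 8 of 14 genes were higher in RA and none lower, with a median of 1.13. Without Camp and Ngp, which helped to choose the cells, 6 of 12 were higher and the median was 1.00. With late cells called after thinning to 1000 UMIs (29 control and 120 RA cells), 1 of 14 was past 2-fold and the median was 0.55.

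Ltf, lactoferrin, stood at 2231 CPM in control and 4828 in RA late cells at 4 dpf, a ratio of 2.16 (2.04 to 2.29). Lcn2, the iron-chelator-binding protein lipocalin, stood at 3311 and 7511 CPM, a ratio of 2.27 (2.16 to 2.38). Neither was part of the rule. Camp and Ngp, which were, stood at 7973 and 17761 CPM and at 6673 and 16220 CPM, as a description only. The share of cells with these RNAs differed too: Ltf had a UMI in 14 of 74 late cells in control and 101 of 147 in RA. With each cell thinned to 1000 UMIs, Ltf had a UMI in 16.2% (8.67 to 26.6) of control and 63.9% (55.6 to 71.7) of RA late cells, and in 0% and 0.2% of 500 collagen-rich mesenchymal cells of each library. The median late cell held 1.9 UMIs of Ltf and Lcn2 per 10000 in control and 116.9 in RA. Chil3, a chitinase-like secretory protein, was higher in RA by 1.62 (log2), Cybb, the catalytic subunit of the oxidase, by 1.23, and Fcnb by 2.26. Outside the list Mmp8 (1.26), Cd177 (1.19), Wfdc21 (1.27) and Padi4 (1.31), the enzyme that citrullinates histones in extracellular traps, were higher too. Mmp8 was the 1 higher gene of 9 in the gelatinase list (median 0.44). Cd177 was the 1 higher gene of 13 in the maturation list, where 1 was lower (median -0.23). Padi4 and Cybb were the 2 higher genes of 9 in the oxidase and extracellular trap list (median 0.27). In the S100 and stefin list, which holds Wfdc21, 4 of 11 genes were higher and none lower.

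Cytokine and chemokine RNA ran the other way. Of 18 genes compared, 7 were lower in RA late cells and 1 was higher, with a median of -0.76. Il1b, the IL-1 beta precursor, stood at 1169 CPM in control and 181 in RA, a ratio of 0.155 (0.136 to 0.176). Cxcl2, a neutrophil chemoattractant, stood at 2231 and 315 CPM, a ratio of 0.141 (0.128 to 0.155), and Ccl3 and Ccl4 at 716 and 179 CPM and at 673 and 95.6 CPM. Here too the share of cells differed. Il1b had a UMI in 61 of 74 control and 52 of 147 RA late cells, although RA late cells held more UMIs each (a median of 9269 against 3567.5). At 1000 UMIs per cell the shares were 60.8% (48.8 to 72.0) and 15.6% (10.2 to 22.5), against 0.2% in mesenchymal cells of both libraries. The higher gene was Il6, with 0 UMIs in control and 24 in RA, and 9 in RA with members rich in other-cell UMIs left out, too few to compare. Macrophage genes were lower in the same late cells (8 of 9), and without those members 7 of 16 cytokine genes were lower (median -0.96). Csf1, which sustains macrophages, and Ptgs2, the inducible cyclooxygenase, were lower by 1.97 and 1.95 (log2).

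In the innate sensing list 5 of 17 genes were lower in RA and none higher (median -0.31), or 3 of 17 after TMM scaling (median -0.04). Nlrp3, the inflammasome sensor, was lower by 2.46 (log2), Clec4d by 1.71, Socs3 by 1.36, Cd14 by 1.19 and Il1r2 by 1.13. In the interferon list 8 of 20 genes were lower (6 after TMM scaling, 3 with cells weighted equally), including Rsad2 (-1.61), Isg15 (-1.22) and Oasl2 (-1.20), and Cxcl10 was higher, on 2 UMIs in control and 41 in RA, a ratio of 6.04 (1.57 to 51.5) that was not past 2-fold with cells weighted equally. The median of the interferon list was -0.89, and 0.16 among members of 2000 to 8000 UMIs, where Isg15 stood at 0.083. In the tissue-state list 5 of 11 genes were lower (3 of 11 after TMM scaling), led by Cd274, which encodes PD-L1 (-2.17), and Ninj1 (-1.66), and in the apoptosis list 3 of 13 were (2 of 13 after TMM scaling), among them Bcl2a1b (-2.54, a survival gene with near-identical copies that reads may not tell apart) and Bax (-1.16). Csf3r, the G-CSF receptor, stood at 695 and 287 CPM and Cxcr2 at 386 and 190 CPM, but both genes were used to choose or stage the cells. Cell cycle genes were higher: 12 of 23 passed and none was lower, with Mki67 at a ratio of 4.18 (2.55 to 7.29), though Mki67 had a UMI in 6 control and 33 RA late cells and lost the difference among cells of 2000 to 8000 UMIs (-0.04).

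**Figure D4:**
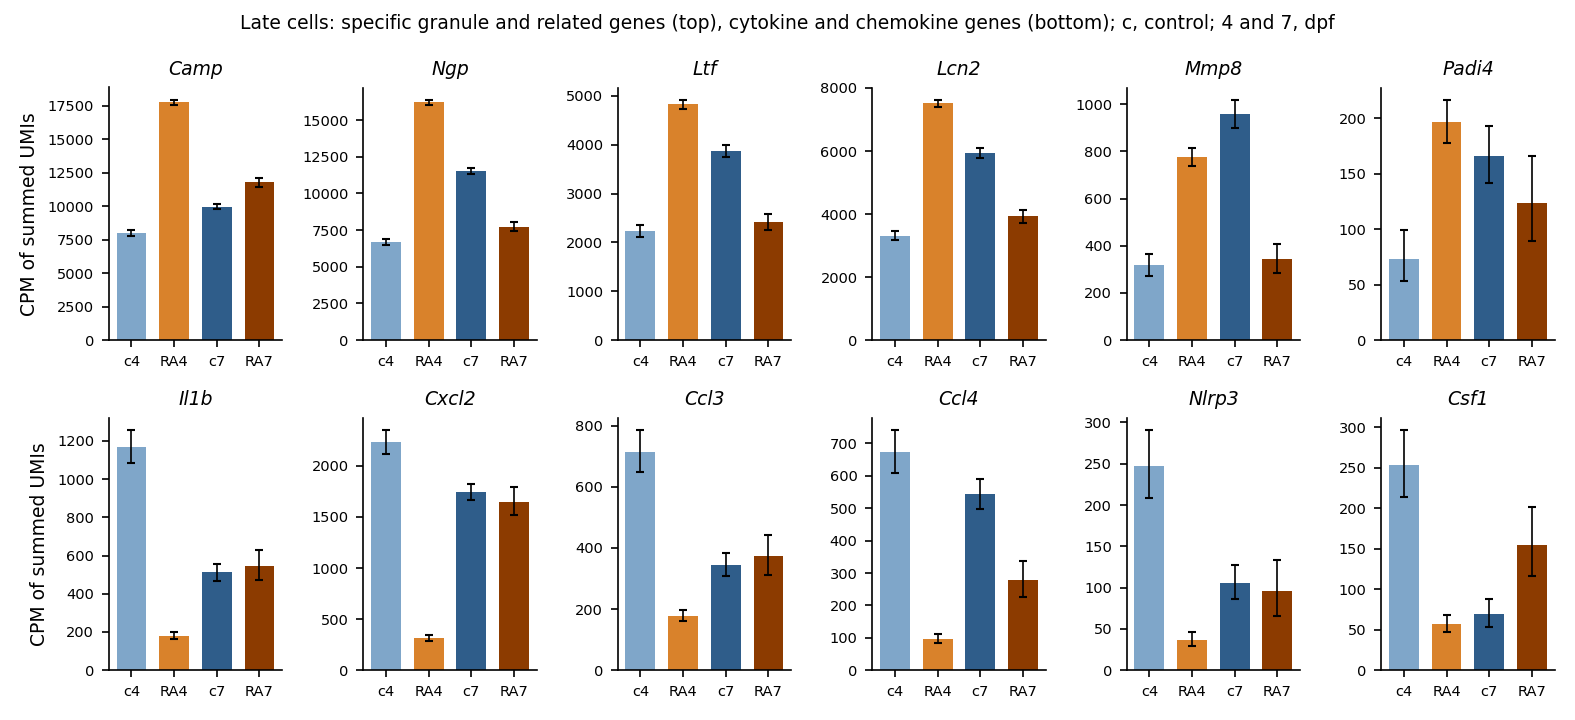
Levels in late cells as CPM of summed UMIs (vertical axes, each starting at 0) in control (c) and RA at 4 and 7 dpf, with 95% exact Poisson intervals. Ltf stands at 2231 and 4828 CPM in control and RA at 4 dpf and Il1b at 1169 and 181; at 7 dpf the Il1b bars are close to each other.

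Receptors known as effectors in the K/BxN model are given as levels. Of 12 Fc receptor and signalling genes none was past 2-fold at 4 dpf, with a median of -0.27; since 7.55% of all genes were, this count says nothing particular to the list. Fcgr4, an activating IgG receptor, stood at 46.1 and 39.8 CPM in control and RA. C5ar1, the C5a receptor, stood at 360 and 236 CPM, and Ltb4r1, the leukotriene B receptor, at 140 and 179 CPM. Of the 12 complement and leukotriene genes 3 were lower in RA, or 2 after TMM scaling: C3ar1 (-1.83), Itgax (-1.32) and Ptafr (-1.15). The macrophage genes had a median of -1.74, and with members rich in other-cell UMIs left out the ratios were -1.32, -1.12 and -1.21. At 7 dpf the Fc list had a median of -0.50, with Fcgr1 lower, and the complement and leukotriene list -0.58, with none past 2-fold. After TMM scaling 2 of 11 and 3 of 11 were lower at 7 dpf, with medians of -0.79 and -0.86.

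At 7 dpf the cytokine median was near 0 and the specific granule median was negative; whether these differ from 4 dpf was not tested. Of 6558 genes, 748 (11.4%) were past 2-fold, 566 higher in RA (8.63%) and 182 lower (2.78%). TMM scaling changed that split to 362 and 329 and the median over all genes from 0.09 to -0.15, and leaving the rule genes away from the total gave 519 and 277. The cytokine list had a median of 0.00 (-0.24 after TMM scaling), with 1 of 16 genes higher and none lower, or none higher and 2 lower after TMM scaling and with the rule genes left away from the total. Il1b stood at 512 CPM in control and 547 in RA, a ratio of 1.07 (0.902 to 1.26), and Cxcl2 at 1742 and 1650. A single control cell carried 53.5% of the Cxcl2 UMIs and 56.5% of those of Ccl4; without the top cell of each library Cxcl2 stood at 813 CPM in control and 1396 in RA, and Ccl4 at 238 and 215. The specific granule list had a median of -0.50, with 1 of 14 genes higher (Orm1, not past 2-fold after TMM scaling or with cells weighted equally) and 1 lower (Olfm4, on 5 UMIs in 3 RA late cells). Ltf stood at 3880 and 2411 CPM, a ratio of 0.621 (0.576 to 0.669), and had a UMI in 57 of 118 control and 11 of 38 RA late cells. Mmp8 stood at 957 CPM in control and 342 in RA, and the gelatinase list had 2 of 9 genes lower and none higher (median -0.73). Acod1, which makes itaconate in activated myeloid cells, was higher in RA (160 against 573 CPM, a ratio of 3.59, 2.90 to 4.44), as were Csf1 (69.2 against 154 CPM) and Irf1 (50.2 against 135 CPM). The Csf1 ratio, 1.05 (log2), was 0.78 after TMM scaling and 0.64 with cells weighted equally, and no interferon gene was 2-fold higher under either of these settings or with doublets left out. Acod1 had a UMI in 42 of 118 control and 28 of 38 RA late cells. No share of other cells and no common depth is given for Acod1, so these counts are a description only.

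**Figure D5:**
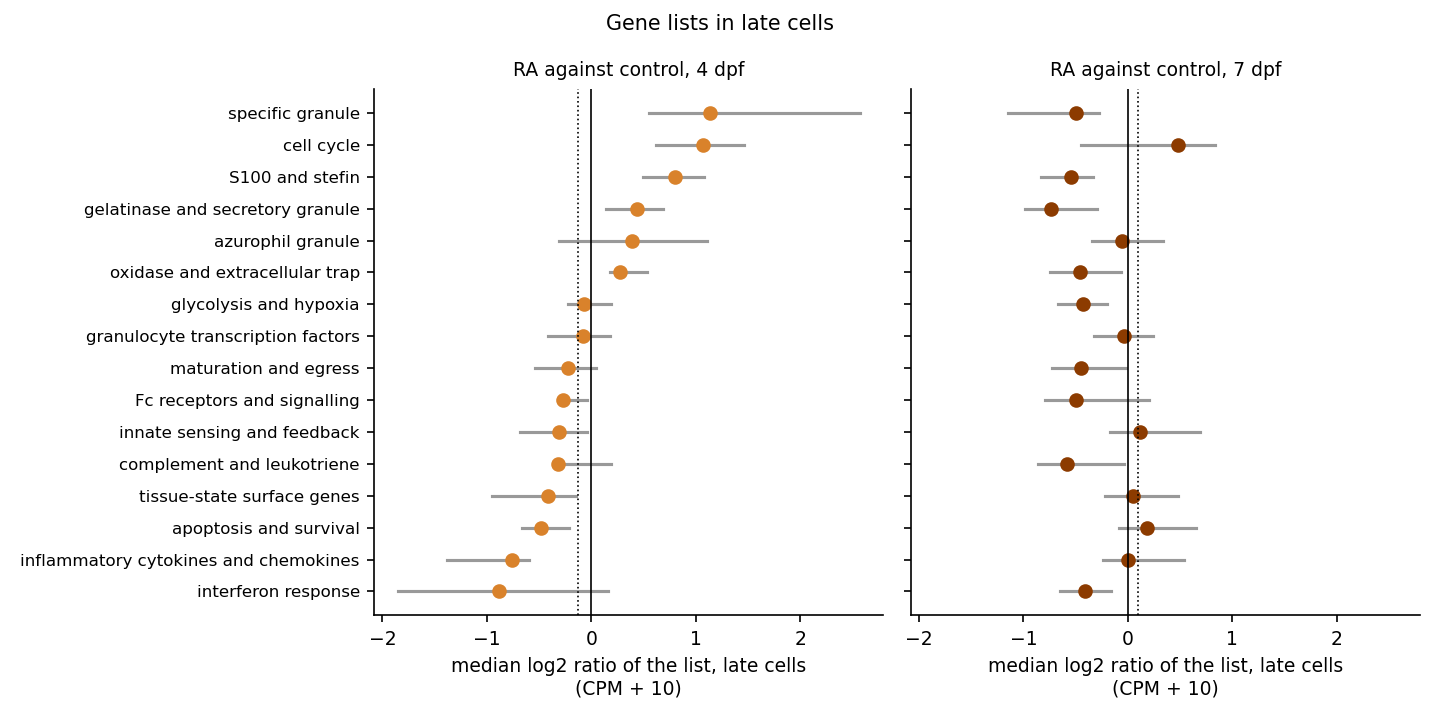
Points give for each of the 16 gene lists (rows) the median of RA over control in late cells at 4 and 7 dpf (log2, CPM + 10); grey bars span the medians under 9 other settings, the dotted line is the median over all genes and the solid line is 0. The specific granule list stands at 1.13 at 4 dpf and -0.50 at 7 dpf, and the cytokine list at -0.76 and 0.00.

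The same 4 libraries can also be compared along time within a condition. Between 4 and 7 dpf in control, 433 of 6987 genes (6.2%) were past 2-fold, 140 higher (2%) and 293 lower (4.19%), a split of 227 to 197 after TMM scaling and 215 to 239 without the genes of the rule in the total. In RA 990 of 8195 (12.1%) were, 751 higher (9.16%) and 239 lower (2.92%), or 454 to 450 and 682 to 399 under these scalings. The medians over all genes were -0.14 and 0.11. The specific granule list had a median of 0.63 in control and -0.74 in RA, and the cytokine list -0.40 and 0.59. In control no specific granule gene was 2-fold higher at 7 dpf and 1 of 14 was lower. Over the same interval 7 of 9 macrophage genes were lower in control late cells (median -1.55) and 5 of 5 endothelial genes higher in RA late cells (1.68), and their part in these medians was not tested. The level of Ltf at 7 dpf was 1.74 (1.63 to 1.85) times that at 4 dpf in control and 0.499 (0.465 to 0.536) times in RA, and that of Il1b 0.438 (0.390 to 0.492) and 3.03 (2.53 to 3.62) times.

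The share of genes past 2-fold between conditions was lower in precursors than in late cells. Cell numbers, depth and genes compared differed between the stages, and the difference was not tested. At 4 dpf 350 of 9063 genes (3.86%) were past 2-fold, 75 higher in RA (0.828%) and 275 lower (3.03%), and at 7 dpf 309 of 5599 (5.52%), 240 higher (4.29%) and 69 lower (1.23%), from 15 RA and 22 control cells. With precursors rich in other-cell UMIs left out the split was 100 to 144 at 4 dpf and 148 to 85 at 7 dpf. The 7-gene mesenchymal list summed to 9.10 and 1.90 UMIs per 10000 in control and RA precursors at 4 dpf and to 3.86 and 47.5 at 7 dpf, led by Col3a1 or Col1a1, and the 7-gene dendritic cell list to 0.309 and 2.04 and to 0.957 and 5.84. The part of these UMIs in the other precursor differences was not tested. No gene of the cell cycle list passed at either time, with medians of 0.07 and -0.18. Interferon-induced genes were lower in RA at 4 dpf (5 of 12, none higher, median -0.82), but with the 6 precursors rich in other-cell UMIs left out (1 control, 5 RA) 1 of 12 was lower and the median was -0.12. That gene was Ifitm1, which stood at 999 CPM in control and 256 in RA at 4 dpf and at 522 and 170 at 7 dpf. In the S100 and stefin list 4 of 11 genes were lower in RA precursors at 4 dpf and none higher (median -0.52). With the same precursors left out the count was again 4 of 11 (median -0.44). At 7 dpf 1 of 9 was higher and none lower (0.12). Ctsc, the protease that activates the azurophil enzymes, stood at 410 and 128 CPM at 4 dpf and 504 and 249 at 7 dpf. Of 9 azurophil genes, Ctsc was the 1 past 2-fold at 4 dpf, and Mpo (1.34, log2) and Ctsg (2.24) were the 2 past it at 7 dpf, both higher in RA. Few cells carried that level: Mpo had a UMI in 26.7% of the 15 RA and 40.9% of the 22 control precursors at 7 dpf. Ly6c2, a monocyte gene that granulocyte-monocyte progenitors share, stood at 1484 and 1213 CPM at 4 dpf. It led the 6-gene monocyte list, which summed to 20.6 and 15.8 UMIs per 10000 in control and RA precursors at 4 dpf. At 7 dpf both stood at 21.4, against 2.67 to 8.97 in the other kept cells of the 4 libraries. Ly6g had a UMI in 38.9% and 31.9% of precursors at 4 dpf and in 22.7% and 13.3% at 7 dpf. Whether monocyte-lineage cells entered the precursor class was not tested.

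Several large single-gene differences in late cells at 7 dpf were in genes of other cell types. Among genes that reached 200 CPM and pointed the same way at 4 dpf, the 8 with the largest excess in RA were Dnm3, Sorbs2, Aqp1, Slco2a1, Eln, Selp, Vwf and Cavin2, among them endothelial genes such as Vwf, von Willebrand factor. Vwf stood at 24.1 CPM in control and 303 in RA, with 87.0% of its RA UMIs in 3 of 38 late cells, and for the 8 genes the 3 top cells held 52.2% to 96.1%. Among late cells of 2000 to 8000 UMIs Dnm3, Slco2a1, Selp and Vwf were lower in RA at 7 dpf. The 5-gene endothelial list summed to 3.47 and 15.7 UMIs per 10000 in control and RA late cells at 7 dpf and to 4.61 and 4.07 at 4 dpf, led by Pecam1. Under the same limits the 8 largest deficits were Ifi27l2a, 4 haemoglobin genes, Postn, Col1a1 and Tgfbi. In control 3 of 118 late cells held 82.3% to 91.0% of the UMIs of each haemoglobin gene and 68.8% of those of Col1a1, and Postn was higher in RA (0.41) among late cells of 2000 to 8000 UMIs. The 8-gene erythroid list summed to 9.70 in control and 0.131 in RA at 4 dpf and 23.9 and 4.01 at 7 dpf, led by Hbb-bs, with Klf1 and Car1 at 0 in late cells of all 4 libraries. The 10-gene macrophage list, led by Apoe, summed to 31.3 and 8.30 at 4 dpf and 9.76 and 23.0 at 7 dpf, and the 7-gene mesenchymal list to 32.9 and 14.3 and to 40.7 and 19.0. Ifi27l2a, an interferon-induced gene, had a UMI in 30 of 74 control and 38 of 147 RA late cells at 4 dpf and in 73 of 118 and 6 of 38 at 7 dpf. These counts too are a description only, with no share of other cells beside them. With the 62 members rich in macrophage, mesenchymal or endothelial UMIs left out, the specific granule median at 4 dpf was 1.18 and the cytokine median -0.96; the part of the remaining UMIs in the other differences was not tested.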

How the data were processed

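Callus cells were profiled with 10x Genomics 3′ chemistry. The authors deposited raw UMI counts per gene and barcode for each library, made with Cell Ranger 7.0.1 on mm10 per the labels; 34038 barcodes held 168210361, 130168130, 177131833 and 182259646 UMIs in control and RA at 4 dpf and control and RA at 7 dpf. The members, gene lists and alternatives were chosen with earlier results of these data known. The study's own filter (4000 to 50000 UMIs, 2000 to 7000 genes, at most 8% mitochondrial UMIs) would keep 381 of the 683 members (55.8%) and 83.3% to 88.0% of the other kept cells, and was used as an alternative.

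Counts were summed per library and stage. Shares carry exact Clopper-Pearson intervals, levels exact Poisson intervals and ratios exact conditional intervals (scipy 1.17.1, numpy 2.4.6). Log2 ratios used CPM plus 10, with at least 50 UMIs per gene over the members for stages and 20 for conditions; genes of the rule were left out of the stage comparison, and a gene counted as different at 2-fold or more. Doublets were called with Scrublet in scanpy 1.11.5 and kept in the main values. The fold comparison was tested on simulated data with no variation between cells. That test cannot show how single cells that carry much of a gene's UMIs affect the calls. Text names list genes, the 10 genes per stage with the largest smallest-of-the-libraries ratio, and the 8 largest rises and falls at 7 dpf that reached 200 CPM in either library and pointed the same way at 4 dpf; mitochondrial, ribosomal, rule and duplicated symbols were left out. Csf1, Acod1, Irf1 and Ifi27l2a at 7 dpf, and the genes checked for single cells, were singled out after their values were seen. Promoters came from a RefSeq table (GRCm38.p6) and positions from GENCODE M21. Tested alternatives were the filter, thresholds, doublets, depth, pseudocount, scaling, UMI minimum and cell weighting.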

Additional observations from a re-analysis of the deposited data

Results flagged for a closer look

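The neutrophil share of kept cells differed from control in opposite directions at the 2 times, with a ratio of RA to control of 3.59 at 4 dpf and 0.379 at 7 dpf. With 1 library per condition the difference between these ratios was not tested. In late cells, 6 listed or named genes were past 2-fold in opposite directions at 4 and 7 dpf, also untested. Of all genes compared, 7.55% at 4 dpf and 11.4% at 7 dpf were past 2-fold in either direction. How many of all genes changed direction in this way was not counted, so the 6 genes are a description only. The log2 ratios of RA to control at 4 and 7 dpf were -1.64 and 1.78 for Acod1, -1.97 and 1.05 for Csf1, -1.44 and 1.20 for Gbp2, an interferon-induced GTPase, 1.26 and -1.46 for Mmp8, 2.15 and -1.28 for Stfa2, and 2.08 and -2.72 for Stfa3. For Csf1 the ratio at 7 dpf was under 2-fold after TMM scaling (0.78) and with cells weighted equally (0.64), and Gbp2 was not past 2-fold at 7 dpf in those settings or with doublets left out. The stefins rest on few cells: Stfa3 had a UMI in 2 control late cells at 4 dpf and 3 RA late cells at 7 dpf. Gbp2 had 10 to 18 UMIs in each library.

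Among barcodes above the limit of 50000 UMIs, which the report does not use, 48 in the RA library at 4 dpf met the S100a8, S100a9 and granulocyte rule, against 3 in control at 4 dpf, 8 in control at 7 dpf and 4 in RA at 7 dpf. Of the 48, 40 met the precursor rule, and the doublet caller, run on kept cells, was not applied to them.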

How the results depend on the processing

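No paired analysis was possible because each condition holds 1 library. With the study's cell filter the neutrophil share ratio of RA to control was 6.62 at 4 dpf and 0.555 at 7 dpf, and among cells with a Ptprc UMI it was 0.563 at 7 dpf. Precursor shares of the members under the study's filter were 38.6% in control and 50.2% in RA at 4 dpf and 29.7% and 34.1% at 7 dpf. Thinned to 1000 UMIs they were 4.24% and 19.0% at 4 dpf and 4.76% and 7.58% at 7 dpf. In RA at 4 dpf the share was 25.7% at 5 precursor UMIs and 41.2% with no upper UMI limit. Late shares, in control and RA at 4 dpf and then at 7 dpf, were 45.5%, 32.4%, 44.6% and 38.6% under the study's filter, 24.6%, 36.3%, 53.0% and 34.8% when thinned, and 33.9%, 37.5%, 56.0% and 43.9% at 5 late UMIs.

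Between stages, 907 genes were past 2-fold with a pseudocount of 1 CPM, 827 with cells weighted equally, 2663 with stages called at 1000 UMIs, and 587 to 637 leaving out 1 library. For RA against control in late cells, a pseudocount of 1 CPM gave 1402 genes at 4 dpf and 1226 at 7 dpf, and a minimum of 100 UMIs gave 246 and 196. At 7 dpf a minimum of 1 UMI gave 1242 genes and members of 2000 to 8000 UMIs 381. From 4 to 7 dpf the pseudocount of 1 CPM gave 822 genes in control and 1831 in RA, the minimum of 100 UMIs 118 and 349, and the 2000 to 8000 UMI range 416 in RA. Stages called at 1000 UMIs left 571 genes at 4 dpf, of which 187 were among the 637. The stage comparison had too few precursors in the 2000 to 8000 UMI range to give a value.

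Among single-gene ratios past 2-fold in the main values, changes of direction occurred only in alternatives chosen after seeing the data. Sign changes of smaller ratios were not counted as such. At 4 dpf, with stages called at 1000 UMIs, the ratio (log2, RA over control) was -0.11 for Sorbs2 and -0.89 for Vwf. At 2000 to 8000 UMIs it was 0.083 for Isg15, -0.040 for Mki67, -1.05 for Aqp1 and -1.05 for Vwf at 4 dpf, and -0.47 for Mki67, -0.63 for Dnm3, -0.63 for Slco2a1, -0.58 for Selp, -0.87 for Vwf and 0.41 for Postn at 7 dpf. The cause was not tested. Over the shares, gene counts and single-gene ratios, 419 values under planned and 132 under added alternatives stayed within their error or 1.5 times the count, 145 and 112 moved further, and the 12 single-gene ratios above changed sign. List medians could change sign as well: the interferon list at 4 dpf went from -0.89 to 0.16 at 2000 to 8000 UMIs, and under TMM scaling the maturation list went from -0.23 to 0.04 at 4 dpf and the innate sensing list from 0.12 to -0.17 at 7 dpf, among others near 0. At 38 late cells in RA at 7 dpf and 15 to 22 precursors in 3 libraries, single cells can set a level.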
